A study of Homo sapiens with 20 samples.

Results

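Activated TAZ and activated YAP were compared through the accessible chromatin of SW872 cells that carried one or the other, using the 2 peak lists deposited for these vectors. The members were all 383588 peaks of the TAZ4SA list (152702 peaks) and the YAP5SA list (230886 peaks), of 1407450 peaks in the 7 lists of the series. A peak was counted as shared when it overlapped a peak of the other list by 1 bp or more. A peak was counted as one-sided when the −log10 p of its summit was 6 or more and no peak of the other list lay within 1 kb. Shared sites, 92871 in all, were the unions of overlapping TAZ4SA and YAP5SA peaks.

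SW872 is an established human liposarcoma cell line. Pools of cells were stably transduced with a retroviral vector and 50000 cells entered each ATAC-seq library, an assay that maps open chromatin by sequencing the fragments released by Tn5 transposase. TAZ4SA and YAP5SA are full-length TAZ and YAP whose serines targeted by the LATS kinases were replaced by alanine, and each was profiled in 3 libraries. The lists used for reference came from the empty vector (EV, 3 libraries, the third titled a redo), CAMTA1 (3 libraries), TFE3 (2 libraries) and a pair of fusions, TAZ-CAMTA1 and YAP-TFE3 (3 libraries each, the latter titled with YAP5SA as its YAP part). No loss of the line's own TAZ or YAP is described, so each list belongs to an added protein on that background. No marker of the cell type could be read from peak positions, and the labelled line was taken as given.

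YAP and TAZ are paralogous transcriptional co-activators at the end of the Hippo pathway. They do not bind DNA by themselves and reach chromatin mainly through the TEAD transcription factors, largely at enhancers. Phosphorylation by the LATS kinases keeps both proteins in the cytoplasm and promotes their degradation, which the serine to alanine forms escape. Open chromatin marks promoters, enhancers and other regulatory DNA, and an ATAC-seq peak is a stretch where cutting by the transposase exceeded the local background.

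Because each vector was represented by a single list, the spread between libraries could not be measured and no test between vectors was possible. The intervals given are Wilson 95% intervals of shares and Newcombe 95% intervals of differences. They cover counting error only and treat neighbouring peaks as independent. The read depth of the lists is unknown. The YAP5SA list was 1.51 times as long as the TAZ4SA list, and the part of depth in the differences below was not tested. Positions are hg19 coordinates counted from 1.

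Most TAZ4SA peaks were also YAP5SA peaks, whereas most YAP5SA peaks had no counterpart in the TAZ4SA list. Of the 152702 TAZ4SA peaks, 115942 (75.9%, interval 75.7 to 76.1) overlapped a YAP5SA peak. Of the 230886 YAP5SA peaks, 97611 (42.3%, interval 42.1 to 42.5) overlapped a TAZ4SA peak. The shared sites made up 35.3% of the 262906 sites held by either list. Counted in bases, 85.1% of the DNA covered by TAZ4SA peaks lay in YAP5SA peaks and 51.7% of the DNA covered by YAP5SA peaks lay in TAZ4SA peaks. Requiring an overlap of at least 50% of both peaks lowered the shares to 37.0% and 24.5%. With the YAP5SA list limited to its 152702 peaks of highest −log10 p, they were 69.8% and 56.9%. As deposited, TAZ4SA peaks overlapped EV peaks in 66.1%, TFE3 in 66.7%, TAZ-CAMTA1 in 76.6%, CAMTA1 in 76.8% and YAP-TFE3 in 76.9%. YAP5SA peaks overlapped EV peaks in 52.1%, TFE3 in 54.2%, CAMTA1 in 67.8%, YAP-TFE3 in 69.3% and TAZ-CAMTA1 in 71.1%. The TAZ4SA share with YAP5SA lay inside its range, and the YAP5SA share with TAZ4SA lay below its own.

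The peaks left without a partner were narrow and weak in both lists. The 36760 unshared TAZ4SA peaks had a median width of 97 bp and a median area of 37.6, against 223 bp and 154 for the shared ones. The area is the deposited signal of a peak, the area under the curve of the peak caller's statistic, and it grows with the width of the peak and the depth of the libraries. The 133275 unshared YAP5SA peaks had a median width of 106 bp and a median area of 60.4, against 420 bp and 548 for the shared ones. Only 286 of the 36760 unshared TAZ4SA peaks but 9350 of the 133275 unshared YAP5SA peaks had a −log10 p of 6 or more. Over the whole lists, 29.1% of TAZ4SA and 30.1% of YAP5SA peaks did.

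Sharing therefore rose with the area. With each list divided into 10 equal parts (deciles) by area, 43.7% of TAZ4SA peaks were shared in decile 1, 73.1% in decile 5, 98.3% in decile 8 and 99.99% in decile 10. The corresponding shares of the YAP5SA list were 10.2%, 24.1%, 69.9% and 99.9%. The top 1% of each list by area, 1528 TAZ4SA and 2309 YAP5SA peaks, overlapped the other list without exception. The largest peaks of both cell pools were thus at the same places. Below them the lists parted, in the YAP5SA list up to decile 9, where 92.7% of its peaks were shared.

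**Figure D1:**
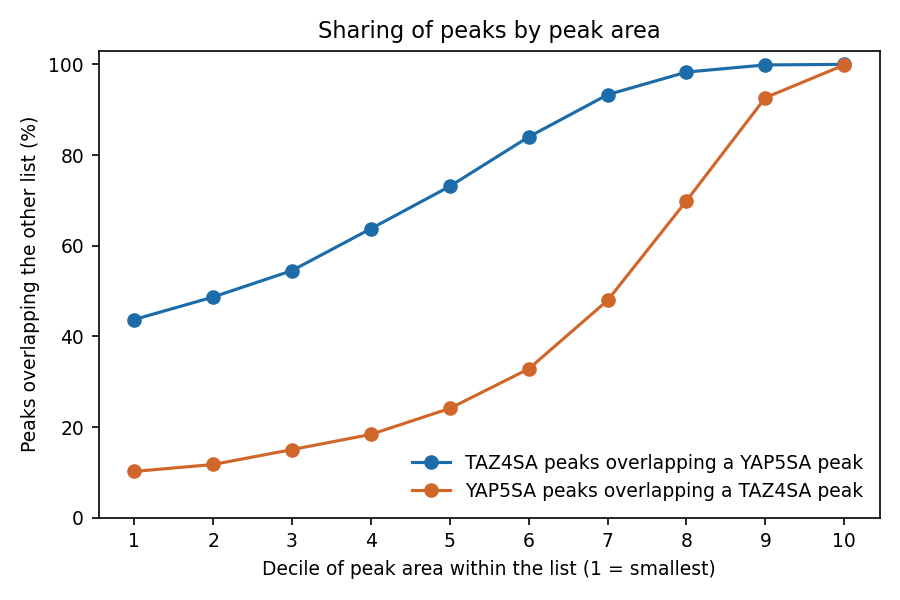
Share of TAZ4SA peaks (blue) and YAP5SA peaks (orange) that overlapped a peak of the other list, in percent, by decile of the peak area within each list. Both curves end near 100% in decile 10, and the YAP5SA curve starts at 10.2% where the TAZ4SA curve starts at 43.7%.

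Where the lists met, YAP5SA peaks were wider. The 120682 overlapping pairs included 71773 in which a peak of each list met no other peak of the partner list, and these one-to-one pairs were used to compare width, rank and summit. The median width in them was 209 bp in the TAZ4SA list and 334 bp in the YAP5SA list. The median log2 ratio of width, YAP5SA over TAZ4SA, was 0.37 (quartiles 0.01 and 0.99), a fold of 1.29. The YAP5SA peak was the wider one in 75.9% of pairs. It was at least 2 times as wide in 24.8%, and the TAZ4SA peak was at least 2 times as wide in 3.91%.

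The geometry of the pairs was mostly one of nesting. In 37910 pairs (52.8%) the TAZ4SA peak lay wholly inside the YAP5SA peak, and in 7433 (10.4%) the YAP5SA peak lay wholly inside the TAZ4SA peak. The median share of a TAZ4SA peak covered by its partner was 100%, and that of a YAP5SA peak was 70.4%. Outside the one-to-one pairs, 18231 YAP5SA peaks spanned 2 or more TAZ4SA peaks and took in 41302 of them. These spanning peaks were wide and strong, with a median width of 1165 bp and a median −log10 p of 10.2. The reverse, a TAZ4SA peak over 2 or more YAP5SA peaks, occurred 4427 times, with a median width of 615 bp. When every overlapping pair was counted, the median log2 width ratio was 0.70.

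The difference in width was largest for narrow TAZ4SA peaks. Pairs with a TAZ4SA peak under 150 bp had a median log2 ratio of 0.83, those from 150 to under 300 bp 0.31, those from 300 to under 600 bp 0.24 and those of 600 bp or more 0.19. These classes were made from one of the compared widths, which by itself favours a higher ratio where the TAZ4SA width is small. In the 23019 pairs with both peaks at a −log10 p of 6 or more, the median widths were 682 and 899 bp, the median log2 ratio was 0.25, and the YAP5SA peak was the wider one in 82.9%. The YAP5SA peak was therefore more often the wider one among strong peaks as well, by a smaller ratio.

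Width ratios also depended on the other lists. Set against the TAZ4SA list in the same way, the EV peaks had a median log2 width ratio of 0.21, the TFE3 peaks 0.31, the CAMTA1 peaks 0.56, the YAP-TFE3 peaks 0.61 and the TAZ-CAMTA1 peaks 0.70. The ratio of 0.37 for YAP5SA lay inside this range. By the median, TAZ4SA peaks were the narrower partner in every one of these 6 pairings, which share the TAZ4SA list. Set against YAP5SA peaks, EV peaks had a median log2 ratio of -0.07 and TFE3 peaks of -0.01, so YAP5SA, EV and TFE3 peaks were of nearly equal width where they met.

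Peaks that ranked high in one list ranked high in the other. The Spearman correlation of the areas was 0.743 over the 71773 pairs, and that of −log10 p was 0.717. Pairings of the 2 lists with the other lists gave Spearman correlations of area from 0.620 (TAZ4SA with TAZ-CAMTA1) to 0.757 (YAP5SA with TFE3). The value of 0.743 lay inside this range. These are descriptions across sites that share their lists, and a wide peak has a large area in any list. With the area divided by the width of the peak, the Spearman correlation was 0.642. Among pairs in which both peaks had a −log10 p of 6 or more, the Spearman correlation of the areas was 0.906. It was 0.199 among pairs with a TAZ4SA peak under 150 bp and 0.913 among those of 600 bp or more. These classes also limit the range of the TAZ4SA areas, which by itself changes the Spearman correlation.

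Areas and percentiles of the pairs were compared next. The median area was 135 in the TAZ4SA list and 402 in the YAP5SA list, and the YAP5SA area was the larger in 83.7% of pairs, with a median log2 ratio of 1.10. Per base pair of peak, the median log2 ratio was 0.66 (quartiles 0.12 and 1.28), so the YAP5SA peaks were taller as well as wider on the deposited scale, which is not comparable between lists of different depth. Ranks within a list carry no such scale, but they depend on how many weak unshared peaks a list holds below the shared ones, and the YAP5SA list held more. The median percentile of area was 58.6 in the TAZ4SA list and 73.6 in the YAP5SA list, and the median difference within a pair was 7.11 points. A difference of 25 points or more in favour of YAP5SA occurred in 16743 pairs (23.3%) and in favour of TAZ4SA in 3281 (4.57%). Ranking among the pairs alone gives both lists the same ranks to share out. By construction, an overall lean in mean rank could not appear there. A difference of 25 points or more in favour of YAP5SA then occurred in 7954 pairs (11.1%) and in favour of TAZ4SA in 7594 (10.6%), in an alternative chosen after the values had been seen. The median absolute difference was 10.2 points, and 49.4% of pairs lay within 10 points.

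**Figure D2:**
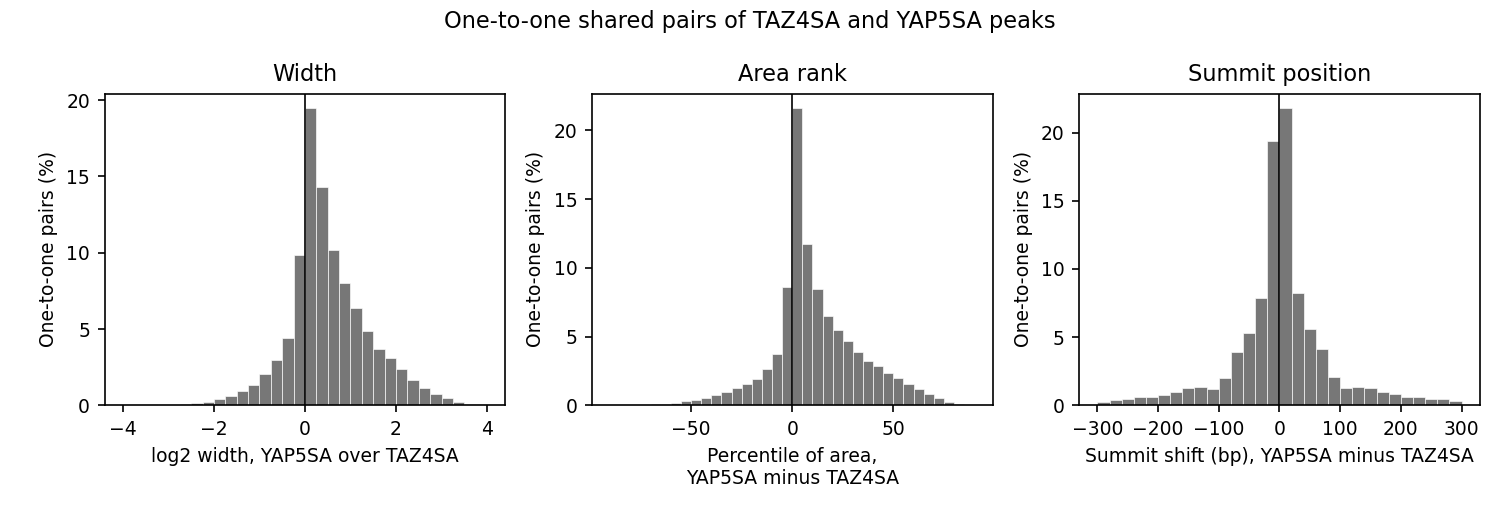
Distributions over the 71773 one-to-one pairs of the log2 width ratio (left), the difference in percentile of area within the list (middle) and the summit shift in bp (right), each as YAP5SA relative to TAZ4SA, with the percent of pairs on the vertical axis. Width and percentile lean to the YAP5SA side (medians 0.37 and 7.11), the percentile within lists of unequal length, while the summit shift centres on 0. Pairs beyond the plotted range are left out, 3.55% of them in the right panel.

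Both extremes of the percentile difference, named for their values, were single sites. At chr19:47405056-47405922 the TAZ4SA peak was 123 bp wide with an area of 20.3, at percentile 0.514 of its list. The YAP5SA peak there was 867 bp wide with an area of 2356, at percentile 90.8. The EV list had a peak of area 84.9 at this site, CAMTA1 312, TFE3 130, TAZ-CAMTA1 338 and YAP-TFE3 254, so YAP5SA stood above all the other lists. At chr11:86484661-86485737 the areas were 20.5 for TAZ4SA and 2243 for YAP5SA, with 930 in EV and between 1055 and 1659 in the other 4 lists. This second site was large in every list but TAZ4SA. At chr1:94201300-94201647 the areas were 20.8 and 1711, and EV had no peak.

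The largest differences in favour of TAZ4SA included sites with and without an EV peak. At chr2:221369923-221370322 the TAZ4SA peak was 364 bp wide with an area of 706 (percentile 82.9), and the YAP5SA peak was 62 bp wide with an area of 20.6 (percentile 0.809). EV and TFE3 had no peak there, CAMTA1 one of area 48.3 and YAP-TFE3 one of area 249. At chr4:90758080-90758476 the areas were 540 for TAZ4SA and 21.7 for YAP5SA. The EV peak there had an area of 413 and the YAP-TFE3 peak one of 2667, so it was the low YAP5SA value that stood apart. No pair with both peaks at a −log10 p of 6 or more ranked 25 points higher in the TAZ4SA list, and 3 ranked 25 points higher in the YAP5SA list. The choice of such pairs by itself leaves little room for that difference. Their median percentiles of area were 86.7 in the TAZ4SA list and 90.3 in the YAP5SA list.

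The summits of shared peaks coincided closely. The median shift, YAP5SA minus TAZ4SA, was 0 bp, and 49.1% of pairs had a positive shift. The median absolute shift was 30 bp. It was at most 50 bp in 63.5% of pairs, at most 100 bp in 80.3% and over 200 bp in 8.39%. The TAZ4SA summit lay inside the YAP5SA peak in 93.8% of pairs, and the YAP5SA summit lay inside the TAZ4SA peak in 87.8%. In pairs with both peaks at a −log10 p of 6 or more the median absolute shift was 21 bp. Pairings of the 2 lists with the other lists gave median absolute shifts of 21 to 30 bp, so the TAZ4SA and YAP5SA summits were no nearer to each other than to those of other vectors. Over all overlapping pairs the median was 52 bp.

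The shared sites were then split by the presence of an EV peak and of fusion peaks. Of the 92871 shared sites, 74748 (80.5%, interval 80.2 to 80.7) overlapped an EV peak, against 47.6% of all sites held by either list. At least 1 fusion had a peak at 86780 (93.4%, interval 93.3 to 93.6), against 72.0% of all sites. Shared sites are wider than the rest, with a median of 494 bp, and a wide site has more room for an overlap. All of EV, TAZ-CAMTA1 and YAP-TFE3 had a peak at 71858 shared sites (77.4%), against 42.6% of all sites. A total of 68606 shared sites (73.9%) were found in all 7 lists, and 37.8% of all sites had a peak in all 5 other lists. Most of what activated TAZ and activated YAP had in common was thus also open with the empty vector.

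The remaining 18123 shared sites (19.5%) had no EV peak. Both fusions had a peak at 8826 of them, 1 fusion at 4272 and neither at 5025. These were 9.50%, 4.60% and 5.41% of shared sites, against 15.2%, 11.2% and 26.1% of all sites held by either list. Sites without an EV peak were narrow, with a median of 250 bp against 618 bp for those with one. Of the 37709 shared sites at which both lists had a peak with a −log10 p of 6 or more, 1606 (4.26%) had no EV peak. An EV peak without a fusion peak was found at 1066 shared sites (1.15%), against 1.89% of all sites.

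Pairs differed between these classes. Where EV and both fusions had a peak, the median log2 width ratio was 0.37 and the median percentile difference 6.37 points over 52278 pairs. Where neither EV nor a fusion had one, the values were 0.31 and 10.1 points over 4749 pairs. The 975 pairs with an EV peak and no fusion peak were the exception in direction. Their median log2 width ratio was -0.09, their median percentile difference was -7.36 points, and the YAP5SA peak was the wider one in 42.4%. The Spearman correlation of the areas was 0.806 in the class with EV and both fusions and between 0.360 and 0.414 in the other 5 classes.

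A total of 3675 shared sites (3.96%) were in no list but TAZ4SA and YAP5SA, against 23.3% of all sites held by either list, and 180 of them had both peaks at a −log10 p of 6 or more. Their smaller area had a median of 42.2, but a few were large. At chr18:76610772-76612225, a site of 1454 bp, the TAZ4SA area was 3338 (percentile 95.3) and the YAP5SA area 4043 (percentile 94.5). The nearest EV peak was 10029 bp away and the nearest fusion peak 4450 bp. At chr1:112320785-112322093 the areas were 1413 and 4383, and the nearest EV peak was 12895 bp away. The site of second rank lay on chromosome 8 and had areas of 1778 and 1964. No list of the 5 other vectors had a peak at any of these 3 sites.

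**Figure D3:**
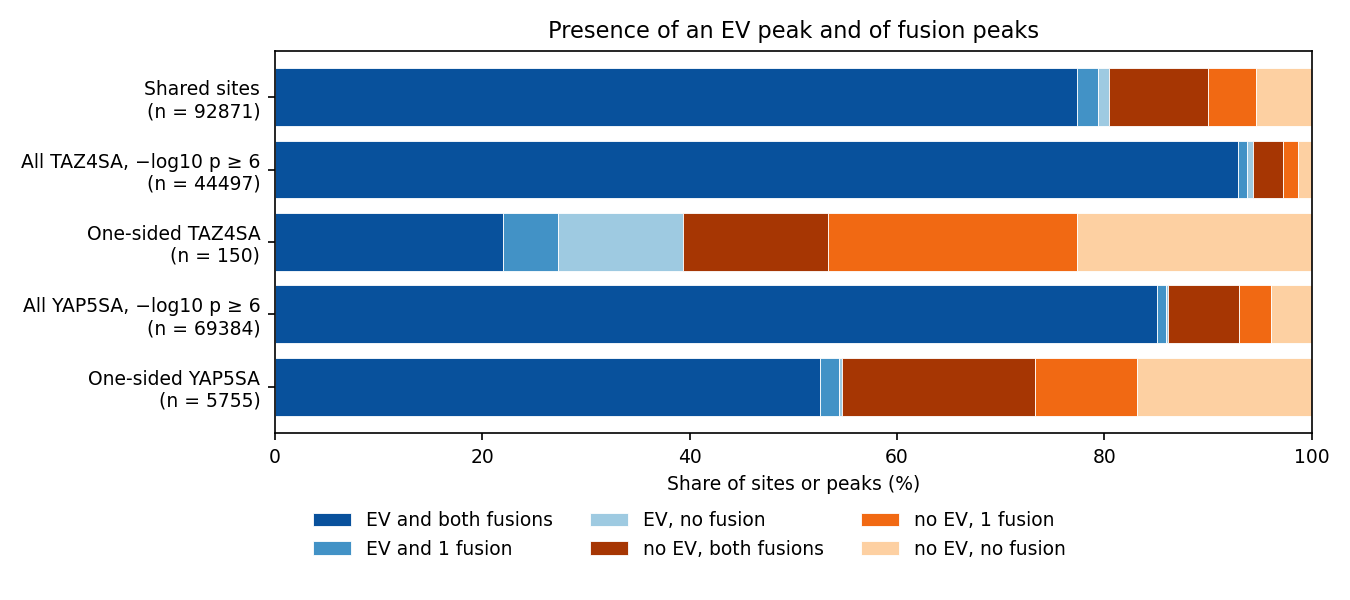
Shares, in percent, of shared sites, of one-sided peaks and of all peaks with a −log10 p of 6 or more, by presence of an EV peak (blue shades) or its absence (orange shades) and by the number of fusions with a peak. Shared sites were mostly in the class with EV and both fusions (77.4%), the one-sided YAP5SA peaks less so (52.5%) and the one-sided TAZ4SA peaks least (22.0%).

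One-sided peaks were few in the TAZ4SA list and many in the YAP5SA list. Of 44497 TAZ4SA peaks with a −log10 p of 6 or more, 150 (0.337%, interval 0.287 to 0.395) had no YAP5SA peak within 1 kb. Of 69384 such YAP5SA peaks, 5755 (8.29%, interval 8.09 to 8.502) had no TAZ4SA peak within 1 kb. The lowest −log10 p among one-sided peaks was 6.003 for TAZ4SA and 6.001 for YAP5SA, and the highest among peaks outside the limit with no partner within 1 kb 5.9998 and 5.997. The nearest peak of the other list was 1006 bp away in both. On the other side of the distance limit, the farthest partner still counted as near was 971 bp from a TAZ4SA peak and 998 bp from a YAP5SA peak.

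The size of this asymmetry depended on the length of the lists and on the limit of −log10 p. As deposited, the YAP5SA number was 38.4 times the TAZ4SA number. With the YAP5SA list limited to 152702 peaks, 358 TAZ4SA peaks were one-sided (0.805%), and the ratio was 16.1. With the YAP5SA peaks at issue also limited to about as many of highest −log10 p as the TAZ4SA list had at 6 or more, a minimum of 7.50, 1105 were one-sided (2.48%). The ratio of these numbers, with both choices changed, was 3.09, and YAP5SA was still the larger. The last alternative was chosen after the values had been seen.

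One-sided peaks were of moderate strength. The median −log10 p was 6.40 for TAZ4SA and 6.66 for YAP5SA, against 8.14 and 8.51 over all peaks at 6 or more. The median width was 211 bp and 313 bp, against 625 and 654 bp. The highest −log10 p was 8.69 for TAZ4SA and 11.8 for YAP5SA. Among YAP5SA peaks with a −log10 p of 6 to 7, 20.7% were one-sided (3798 of 18367), which fell to 11.5% at 7 to 8, 3.802% at 8 to 10 and 0.157% at 10 or more (38 of 24253). The TAZ4SA shares in the same ranges were 0.991%, 0.183%, 0.0481% and 0% (0 of 12781). The YAP5SA share was the higher one in each range.

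The nearest peak of the other list was usually some kb away. Its median distance was 5768 bp for the one-sided TAZ4SA peaks and 6336.5 bp for the one-sided YAP5SA peaks. It exceeded 10 kb at 56 of the 150 TAZ4SA and 2030 of the 5755 YAP5SA peaks, and 100 kb at 7 and 63 of them. As shares, those beyond 10 kb were similar, and those beyond 100 kb were larger for TAZ4SA, on 7 peaks.

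Against the other lists, the YAP5SA share was again the higher. YAP5SA peaks with a −log10 p of 6 or more had no EV peak within 1 kb in 10.5% of cases, no TFE3 peak in 7.30%, no TAZ-CAMTA1 peak in 4.88%, no YAP-TFE3 peak in 4.14% and no CAMTA1 peak in 3.22%. For TAZ4SA peaks the shares were 4.20%, 3.49%, 2.75%, 1.70% and 0.939%. TAZ4SA peaks thus lacked a YAP5SA partner (0.337%) less often than a partner in any other list. YAP5SA peaks lacked a TAZ4SA partner (8.29%) more often than any partner but EV. Peaks of the other lists followed the same direction. Of TAZ-CAMTA1 peaks with a −log10 p of 6 or more, 17.4% had no TAZ4SA peak within 1 kb and 4.18% no YAP5SA peak, and of YAP-TFE3 peaks 16.6% and 4.34%. Of EV peaks, 4.53% had no TAZ4SA peak and 0.660% no YAP5SA peak. These comparisons share the TAZ4SA and YAP5SA lists and are given side by side. The TAZ4SA list was the shortest of the 7 lists (152702 peaks), and the part of list length in these shares was not tested.

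**Figure D4:**
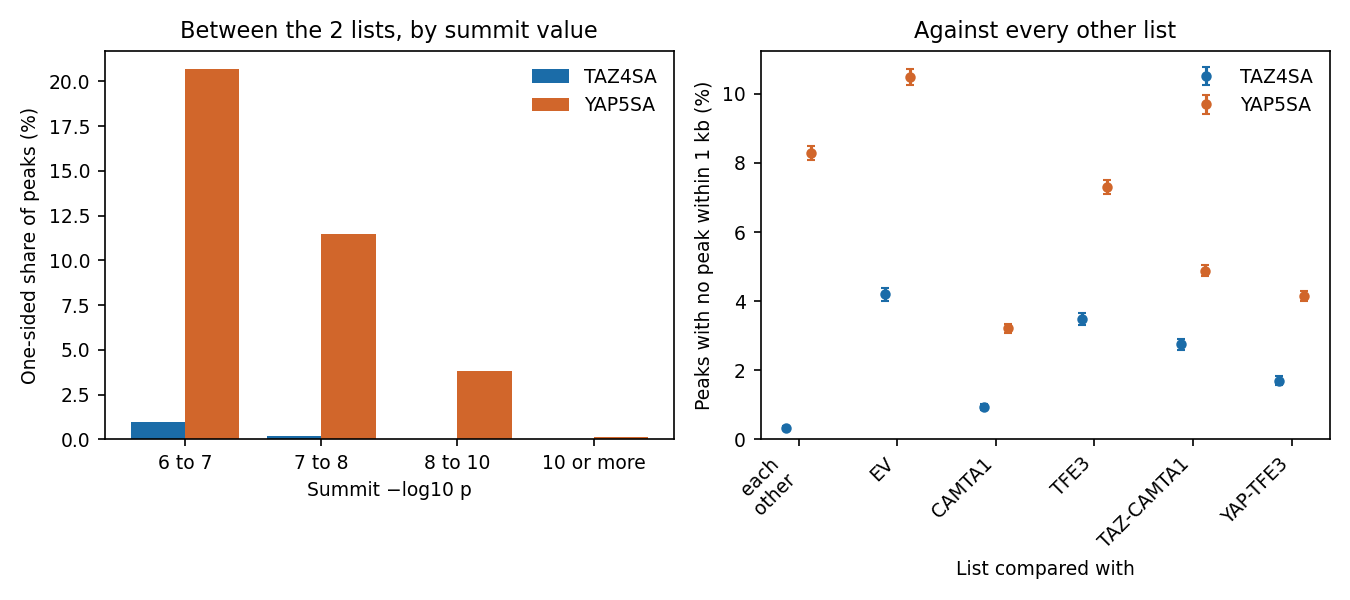
Left, share of TAZ4SA (blue) and YAP5SA (orange) peaks with no peak of the other list within 1 kb, in percent, by summit −log10 p, highest for YAP5SA at 6 to 7 (20.7%). Right, share of peaks with a −log10 p of 6 or more that had no peak within 1 kb in each other list, with Wilson 95% intervals of counting error; the position marked each other is TAZ4SA against YAP5SA and the reverse.

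Most one-sided peaks overlapped a peak of some other vector, though less often than strong peaks in general. Of the 5755 one-sided YAP5SA peaks, 3149 (54.7%, interval 53.4 to 56.0) overlapped an EV peak and 4765 (82.8%, interval 81.8 to 83.8) a peak of at least 1 fusion. Over all YAP5SA peaks with a −log10 p of 6 or more these shares were 86.1% and 95.9%. TAZ-CAMTA1 had a peak at 78.2% of the one-sided peaks (93.6% of all) and YAP-TFE3 at 75.7% (94.2% of all). CAMTA1 had one at 78.6% (95.4% of all) and TFE3 at 65.3% (90.2% of all). A peak in all 5 other lists was found at 2886 (50.1%), against 83.9% of all. Both fusions but not EV had a peak at 1070 (18.6%, against 6.85% of all), and neither EV nor a fusion at 971 (16.9%, against 3.95%). Of those 971, CAMTA1 had a peak at 191 and TFE3 at 20. None of the 5 other lists had a peak at 774 of the one-sided peaks (13.4%), against 2.76% of all.

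Of the 150 one-sided TAZ4SA peaks, 59 (39.3%, interval 31.9 to 47.3) overlapped an EV peak and 98 (65.3%, interval 57.4 to 72.5) a peak of at least 1 fusion. Over all TAZ4SA peaks with a −log10 p of 6 or more the shares were 94.3% and 98.1%. TAZ-CAMTA1 had a peak at 42.7% of them (96.4% of all) and YAP-TFE3 at 58.7% (97.5% of all), CAMTA1 at 62.0% (98.4% of all) and TFE3 at 32.7% (95.3% of all). All 5 other lists had a peak at 30 (20%), against 92.0% of all. Both fusions but not EV had one at 21 (14%), against 2.91% of all. Neither EV nor a fusion had a peak at 34 one-sided peaks (22.7%, against 1.33% of all), and none of the 5 other lists at 27 (18.0%, against 0.737%).

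Both sets were thus present in the other lists less often than the strong peaks they came from. The same held at like strength. Among YAP5SA peaks with a −log10 p of 6 to 7, an EV peak was found at 53.4% of one-sided peaks and at 80.6% of those that overlapped a TAZ4SA peak. Among TAZ4SA peaks in that range it was found at 37.7% of one-sided peaks and at 88.0% of those that overlapped a YAP5SA peak. The share with an EV peak was 15.4 points higher for one-sided YAP5SA than for one-sided TAZ4SA peaks (interval 7.29 to 22.95), and the share with a fusion peak 17.5 points higher (interval 10.2 to 25.4). The gap for TAZ-CAMTA1 was 35.5 points (interval 27.5 to 43.2). The share with neither EV nor a fusion differed by -5.79 points, with an interval of -13.2 to 0.256 that includes 0. Such intervals count the peaks of a single list per vector and are no test between the vectors. These gaps narrowed with the YAP5SA list limited to 152702 peaks, an alternative added for them after seeing the data. An EV peak was then found at 53.6% of the one-sided TAZ4SA and 54.7% of the one-sided YAP5SA peaks, a gap of 1.09 points (interval -4.17 to 6.42). A fusion peak was found at 73.7% and 82.8%, a gap of 9.05 points (interval 4.65 to 13.9), and the gap for TAZ-CAMTA1 was 24.3 points (interval 19.1 to 29.6).

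The strength of the other lists' peaks at these places was read as well. At the 3149 one-sided YAP5SA peaks with an EV peak, the EV peak had a median −log10 p of 5.17, and 869 reached 6. The TAZ-CAMTA1 peaks at one-sided YAP5SA peaks had a median −log10 p of 6.77 (2808 of 4500 at 6 or more) and the YAP-TFE3 peaks 6.82 (2753 of 4358). The median of 6.66 over all 5755 one-sided YAP5SA peaks is not a like value. Those peaks were chosen at 6 or more, and the fusion peaks were not. At the one-sided TAZ4SA peaks the EV peaks had a median of 4.73 (9 of 59 at 6 or more), the TAZ-CAMTA1 peaks 4.59 (22 of 64) and the YAP-TFE3 peaks 5.44 (36 of 88).

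Sites absent from EV were followed from each side. Of 1870 TAZ4SA peaks with a −log10 p of 6 or more and no EV peak within 1 kb, 1788 (95.6%, interval 94.6 to 96.5) had a YAP5SA peak within 1 kb, against 99.7% of all 44497 TAZ4SA peaks at 6 or more. At 1394 (74.5%) an overlapping YAP5SA peak also reached a −log10 p of 6, against 93.8% of all. Of 7282 such YAP5SA peaks, 4950 (68.0%, interval 66.9 to 69.0) had a TAZ4SA peak within 1 kb, against 91.7% of all 69384, and at 1355 (18.6%) an overlapping TAZ4SA peak reached 6, against 55.7% of all. Peaks without an EV peak nearby thus had a partner in the other list less often than strong peaks in general. The comparison was not matched for strength. TAZ4SA peaks at 6 or more that overlapped no EV peak had a median −log10 p of 6.66, against 8.31 for those that did. For YAP5SA the medians were 6.95 and 8.96. At least 1 fusion had a peak at 1382 of the 1870 (73.9%) and 4875 of the 7282 (66.9%), against 98.1% and 95.9% of all. Both counts rest on the same EV list.

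EV peaks themselves were met more often by YAP5SA. Of 171102 EV peaks, 79649 (46.6%) overlapped peaks of both lists, 42053 (24.6%) of YAP5SA only, 6676 (3.90%) of TAZ4SA only and 42724 (24.97%) of neither. The EV peaks met by both lists had a median −log10 p of 6.30. Those met only by YAP5SA were weaker (4.40), as were those met only by TAZ4SA (4.23) and by neither (4.06). Of the 42053 met only by YAP5SA, 3029 had a −log10 p of 6 or more, against 181 of the 6676 met only by TAZ4SA.

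The largest one-sided TAZ4SA peaks included a pair of neighbours on chromosome 20. The peak at chr20:18142447-18143624 was 1178 bp wide with an area of 1679 and a −log10 p of 6.83, the widest and largest of the 150. The nearest YAP5SA peak was 17111 bp away, the nearest EV peak 1242 bp, and each of the other 4 lists was more than 20 kb away. The peak at chr20:18123256-18123615 had an area of 828 and a −log10 p of 7.71, with a YAP5SA peak 1572 bp away. Neither was in any other list. The next, at chr9:69882827-69883252 and chr9:42447273-42447914, had areas of 787 and 622. The former met a YAP-TFE3 peak of area 21.3 and the latter an EV peak of area 75.1.

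Among the one-sided TAZ4SA peaks with neither EV nor a fusion, the 2 peaks on chromosome 20 came first. They were followed by chr7:157725182-157726069 (area 585), chr7:61752594-61753132 (area 559) and chr9:66699854-66700243 (area 520). None of these 3 overlapped a CAMTA1 or TFE3 peak either, although a CAMTA1 peak lay 358 bp from the last. The fifth largest one-sided peak, at chr22:39242893-39243311, had an area of 585 in TAZ4SA and was open in all 5 other lists. Its area was 70.3 in EV, 227 in TFE3, 668 in TAZ-CAMTA1, 699 in CAMTA1 and 827 in YAP-TFE3, with no YAP5SA peak within 2637 bp. At chr13:101539948-101540438 the TAZ4SA area was 492, the EV area 974 and the YAP-TFE3 area 2782, so that YAP5SA was the one list without a peak. At chr7:12498239-12498441 the TAZ4SA area was 508, and the other lists ran from 79.3 in EV to 660 in TAZ-CAMTA1.

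The largest one-sided YAP5SA peaks were larger and wider. At chr7:44170573-44172179, a peak of 1607 bp, the YAP5SA area was 3677 and the −log10 p 10.5, and the nearest TAZ4SA peak was 6551 bp away. All 5 other lists had a peak there, with areas of 134 in EV, 255 in TFE3, 483 in YAP-TFE3, 575 in CAMTA1 and 683 in TAZ-CAMTA1. At chr19:28232139-28233419 the YAP5SA area was 3311, against 114 in EV, 221 in TFE3, 802 in TAZ-CAMTA1, 1181 in CAMTA1 and 1427 in YAP-TFE3. At chr1:19125397-19127088 the YAP5SA area was 3295, and TFE3 was the one other list besides TAZ4SA with no peak. At chr5:75809043-75810557 it was 3207, and the other areas ran from 85.6 in CAMTA1 to 811 in TAZ-CAMTA1. A peak on chromosome 8 with an area of 3493 completed the 5, with areas from 184 in YAP-TFE3 and 484 in EV to 1527 in TAZ-CAMTA1. YAP5SA had the largest area at all 5 places, which were chosen by that area, and the list with the smallest area differed between them.

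Among the 971 one-sided YAP5SA peaks with neither EV nor a fusion, the largest was at chr12:6162475-6163398. Its area was 2579, and its −log10 p of 11.8 was the highest of all 5755. The nearest TAZ4SA peak was 8945 bp away and the nearest fusion peak 2243 bp, and CAMTA1 had a small peak of area 25.1. The next were chr22:27077232-27077886 (area 2157), chr11:75176810-75177803 (area 2138) and chr2:121370927-121372093 (area 1909), followed by a peak on chromosome 8 (area 1812). The first 2 of these 4 and the last were in no other list, and CAMTA1 had a peak of area 53.5 at the third.

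One-sided peaks were spread over all chromosomes. The YAP5SA share ran from 5.72% on chromosome 5 (314 of 5490, interval 5.14 to 6.37) to 12.1% on chromosome 22 (152 of 1252, interval 10.4 to 14.1). Chromosomes 10 (11.2%) and 21 (11.7%) were also high, and chromosomes 9 (6.52%), 13 (6.61%) and 7 (6.77%) were low. These chromosomes were picked for their values, and the intervals were not adjusted for that choice. The TAZ4SA share ran from 0.0652% on chromosome 19 (1 of 1533, interval 0.0115 to 0.369) to 0.716% on chromosome 13 (7 of 977, interval 0.347 to 1.47). Chromosomal copy number of the line was not analysed here.

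**Figure D5:**
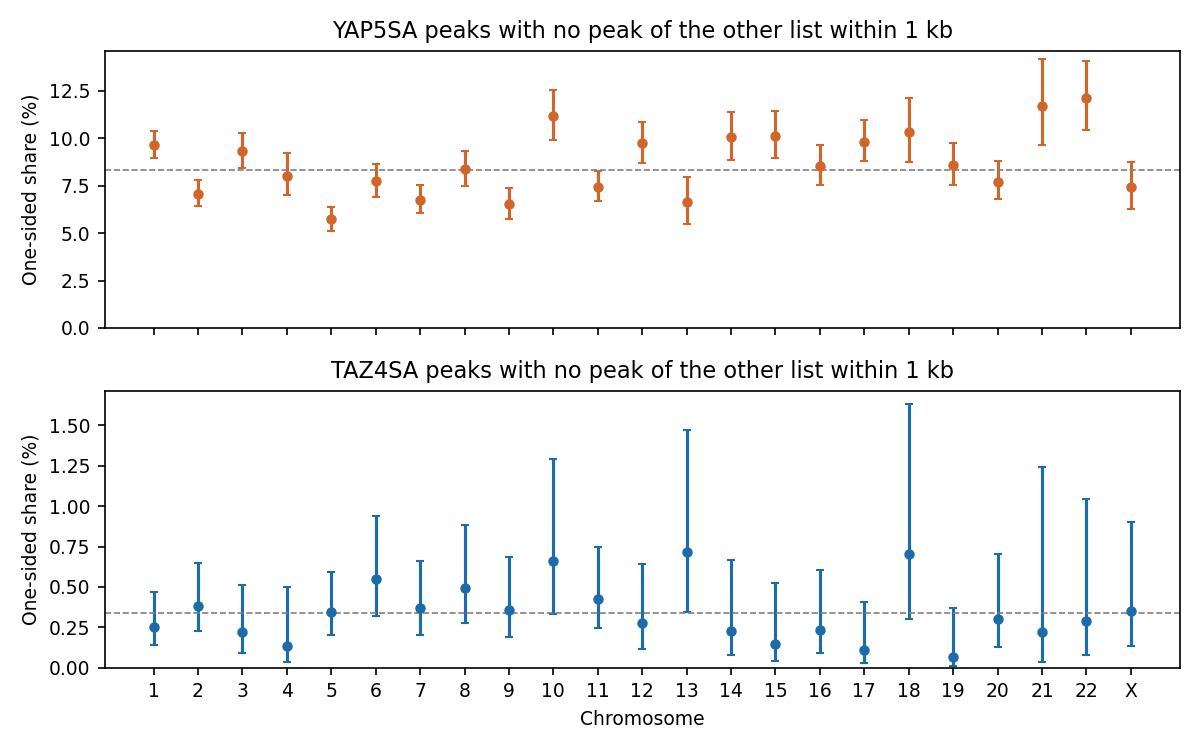
One-sided share, in percent, of YAP5SA peaks (top) and TAZ4SA peaks (bottom) with a −log10 p of 6 or more, by chromosome, with Wilson 95% intervals of counting error and the value over the chromosomes shown as a dashed line. The panels have different vertical scales; YAP5SA was lowest on chromosome 5 (5.72%) and highest on chromosome 22 (12.1%).

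Single regions held up to 14 one-sided YAP5SA peaks per 1 Mb. Among 1452 bins of 1 Mb with at least 20 YAP5SA peaks at a −log10 p of 6 or more, 136 had no one-sided peak. The highest share was 10 of 28 peaks (35.7%, interval 20.7 to 54.2) at chr7:69000001-70000000, followed by 10 of 30 at chr10:29000001-30000000 and 7 of 21 at chr13:27000001-28000000. Of 915 such bins for TAZ4SA, 849 had none and no bin had more than 3. The highest bin held 2 of 20, at chr6:157000001-158000000. These bins are the extremes of many and were picked for their values.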

How the data were processed

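ATAC-seq was performed on 20 libraries of SW872 cells, and 7 Genrich peak lists, 1 per vector, were used. According to the methods, NGmerge trimmed the reads, BWA-MEM aligned them, and Genrich called peaks in its ATAC-seq mode after removing duplicates and blacklisted regions. Calling is described per replicate, and how the libraries were combined into a list is not given in the sources used here. The submitters' processing notes name Bowtie 0.12.2 and mm8, whereas the lists carry human chromosomes and contigs of hg19, which was taken as the build. Depth per library was not analysed here, and more reads give more, wider and stronger peaks.

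The deposited signal, called area here, sums the caller's statistic over a peak, the deposited −log10 p belongs to the summit, and the deposited score is a mean area per base capped at 1000. The authors made these values, and the score was not used. Overlaps, distances, widths, ranks and summits (start plus offset) were computed in Python 3.11.15 with pandas 2.3.3 and scipy 1.17.1. Calls differed from those of bedtools 2.31.1 at 0 peaks and were tested on simulated lists. A site was present in a list if it overlapped a peak by 1 bp or more. Where several peaks of a list met a site, the largest area was given.

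Regions were named by rule: the 5 one-sided peaks per list of largest area, the 5 of largest area with neither EV nor a fusion, the 3 of largest area found in all 5 other lists, the 3 pairs each way of largest percentile difference, the 3 sites of largest smaller area found in both lists only, and the 3 bins of 1 Mb per list of highest one-sided share among those with at least 20 peaks. The members, limits and rule were chosen with earlier results of these data known. The alternatives tried were a −log10 p minimum, equal list lengths, a 50% overlap, other pairs and distances, and autosomes only. No genome or annotation of hg19 was used, so gene names, motifs and sequences were not analysed here.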

Additional observations from a re-analysis of the deposited data

How the results depend on the processing

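No paired analysis was possible because values of single libraries, which carry the replicate numbers, are not part of the lists. Leaving out each library in turn was not run on that account, and the target gene and motif comparisons, which needed an hg19 genome, were not run either. The 13 results were recomputed under 14 alternatives, 77 values in all. Of these, 26 stayed within the counting interval of the reported value, or within 1.5 times for a number of peaks, and 51 moved further. Some of the 26 could not move. Equal list lengths shortened only the YAP5SA list, below the limit for one-sided peaks. The one-sided YAP5SA values therefore stayed at 5755 peaks, 54.7% with EV and 82.8% with a fusion. Raising only the YAP5SA limit of −log10 p likewise left the 150 one-sided TAZ4SA peaks as they were. Such values say nothing about stability. Only the log2 width ratio and the Spearman correlation could change sign, and neither did. Shares, numbers of peaks and absolute shifts cannot. The causes of these movements were not tested. With autosomes only, all 13 results stayed within those limits. The gaps between the one-sided sets narrowed with equal numbers of peaks, from 15.4 to 1.09 points for EV, from 17.5 to 9.05 for a fusion and from 35.5 to 24.3 for TAZ-CAMTA1, in an alternative added after seeing the data.

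With peaks of a −log10 p of at least 4 in both lists, the shared share was 76.2% of TAZ4SA and 49.0% of YAP5SA peaks, the median log2 width ratio 0.39, the Spearman correlation 0.771, and the shared sites had EV in 83.8% and a fusion in 95.1%. With equal numbers of peaks these values were 69.8%, 56.9%, 0.41, 0.760, 83.8% and 95.2%, and 358 TAZ4SA peaks were one-sided, with EV in 53.6% and a fusion in 73.7%. With an overlap of at least 50% of both peaks they were 37.0%, 24.5%, 0.25, 0.915, 82.5% and 94.2%, and the median absolute summit shift was 25 bp. All overlapping pairs gave a log2 width ratio of 0.70, a Spearman correlation of 0.543 and a shift of 52 bp. Summits within 100 bp gave a width ratio of 0.35. The Spearman correlation was 0.717 with −log10 p and, in an alternative added after seeing the data, 0.642 with area per base pair.

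One-sided peaks numbered 1279 (TAZ4SA) and 15722 (YAP5SA) with a −log10 p of at least 5, 5 and 610 with at least 8, 286 and 9350 with no overlapping peak in place of 1 kb, and 79 and 3284 with 5 kb. With the same number of highest −log10 p peaks per list, also added after seeing the data, 1105 YAP5SA peaks were one-sided. The YAP5SA number was the larger in each. The EV share of one-sided YAP5SA peaks was 47.6% at 5, 56.9% at 8, 59.6% with no overlap, 52.7% with 5 kb and 59.5% with presence within 1 kb, and their fusion share 80.0%, 84.3%, 85.8%, 81.1% and 85.8%. For one-sided TAZ4SA peaks, the EV share was 80.0% at 8, where 5 peaks remained, and 51.4% with no overlap, and the fusion share 57.3% at 5 and 20% at 8. At a minimum of 8 the order of the EV shares was therefore the opposite of that reported, on 5 peaks.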
